A study of Rattus norvegicus with 12 samples.

Results

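The change of the hearing spiral ganglion between postnatal day 32 (P32) and postnatal day 60 (P60) was measured in 6 of the 12 RNA-seq libraries of the series, 3 from each age. They were chosen by label alone, as the P32 and P60 libraries of uninjected rats, and all genes were compared. The rats were Sprague-Dawley. The hearing animals received nothing and were littermates of animals deafened with kanamycin, an aminoglycoside antibiotic that kills cochlear hair cells, given at 400 mg/kg intraperitoneally each day from P8 to P16. The 6 libraries of deafened rats, 3 at P32 and 3 at P60, serve here to estimate the spread and to ask whether the change with age differed without hair cells. Each library held total RNA of the whole ganglion after bone, spiral ligament and organ of Corti had been dissected away. The labels call the replicates biological, but no source used here gives the number of animals or ears in each, so p-values measure the spread between these samples.

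The spiral ganglion holds the cell bodies of the auditory neurons, which carry signals from hair cells to the brainstem. Most are large myelinated type I neurons that contact inner hair cells, and a minority are type II neurons that contact outer hair cells. Schwann cells and satellite glia wrap their axons and cell bodies, and the ganglion lies in a canal of bone that contains vessels and marrow spaces. Rats begin to hear before the third week of life, so both ages follow hearing onset.

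The hearing libraries held 22863534 to 35630101 counted reads (15646405 to 43453272 over the series). Levels are in CPM (count per 1e+06 reads, scaled by TMM normalization here). Before that scaling 1 CPM rested on 22.9 to 35.6 reads, and a TMM factor under 1 lowers this number. The third P32 hearing library (replicate 3) was unlike the other 11. Its TMM factor was 0.803, against 1.0 to 1.04 elsewhere, and mitochondrial transcripts made up 3.16% of its reads against 1.30% to 1.64%. Its haemoglobin share was 0.237%, against 0.104% and 0.113% in the other P32 hearing libraries. This library has no column in the authors' normalized table, and calls and counts are therefore given with it (12 libraries) and without it (11 libraries). A fold change or median printed once is from 11 libraries, and a gene said not to pass, with no fit named, passed in neither. Markers of neurons and myelin fitted the label in the 6 hearing libraries: Snap25 lay at 1123 to 1495 CPM and Mbp, a structural protein of myelin, at 4692 to 7860 CPM. In replicate 3 Snap25 was at its highest, 1495 CPM, while the summed level of general neuronal genes was at its lowest, 9154 CPM. Of the hair cell markers, Otof lay at 2.43 to 4.0 CPM and Slc26a5 at 0.646 to 2.77 CPM.

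Few genes passed the test for a change with age, and most of those that did were lower at P60. With 12 libraries, 13 of 17789 genes tested passed edgeR's quasi-likelihood test at a Benjamini-Hochberg adjusted p under 0.05 (0.0731%), 2 higher (0.0112%) and 11 lower (0.0618%) at P60. Without P32 hearing replicate 3, 41 of 18057 genes passed (0.227%), 5 higher (0.0277%) and 36 lower (0.199%). The 41 contained all 13, and all 41 had the same direction in both fits. In 36 of the 41 the 3 P32 libraries and the 3 P60 libraries did not overlap. This follows in part from the choice of the 41, since the test used all of these libraries but replicate 3. The share over all genes was not counted. Among the 5 that overlapped once replicate 3 was included were Col9a1, Col9a3, Lss and Fa2h. The median log2 fold change of all genes was -0.03 with 12 libraries and 0.00 with 11. Of all genes, 46.6% lay above 0 with 12 libraries and 50.7% with 11, the background for counts of list members above or below 0. The genes that fell included Hbb and Slc4a1 of red cells, Alox15, cartilage collagens, and enzymes of cholesterol and myelin lipid synthesis, and the genes that rose included Th and Insrr. At an unadjusted p under 0.05, 5.01% of all genes were lower and 2.81% higher with 11 libraries (8.04% and 2.16% with 12), and DESeq2 called 0.74% lower and 0.237% higher (0.759% and 0.141% with 12). These shares are the background for the counts of list members below. Of the 41, 4 genes were known only by placeholder symbols, 3 lower and 1 higher. The counts depended on single libraries and on the tool: from 12 libraries, leaving out P60 hearing replicate 1 or 3 left 1 gene, and from 11, leaving out P32 hearing replicate 2 left 3 and leaving out P60 deafened replicate 3 gave 240, while DESeq2 called 160 and 173. When each of the 11 libraries was left out in turn, single genes of the 41 passed in 2 (Adamts17, Hba-a2, Mobp) to 11 (Alox15, Col11a1) of the 11 fits.

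**Figure D1:**
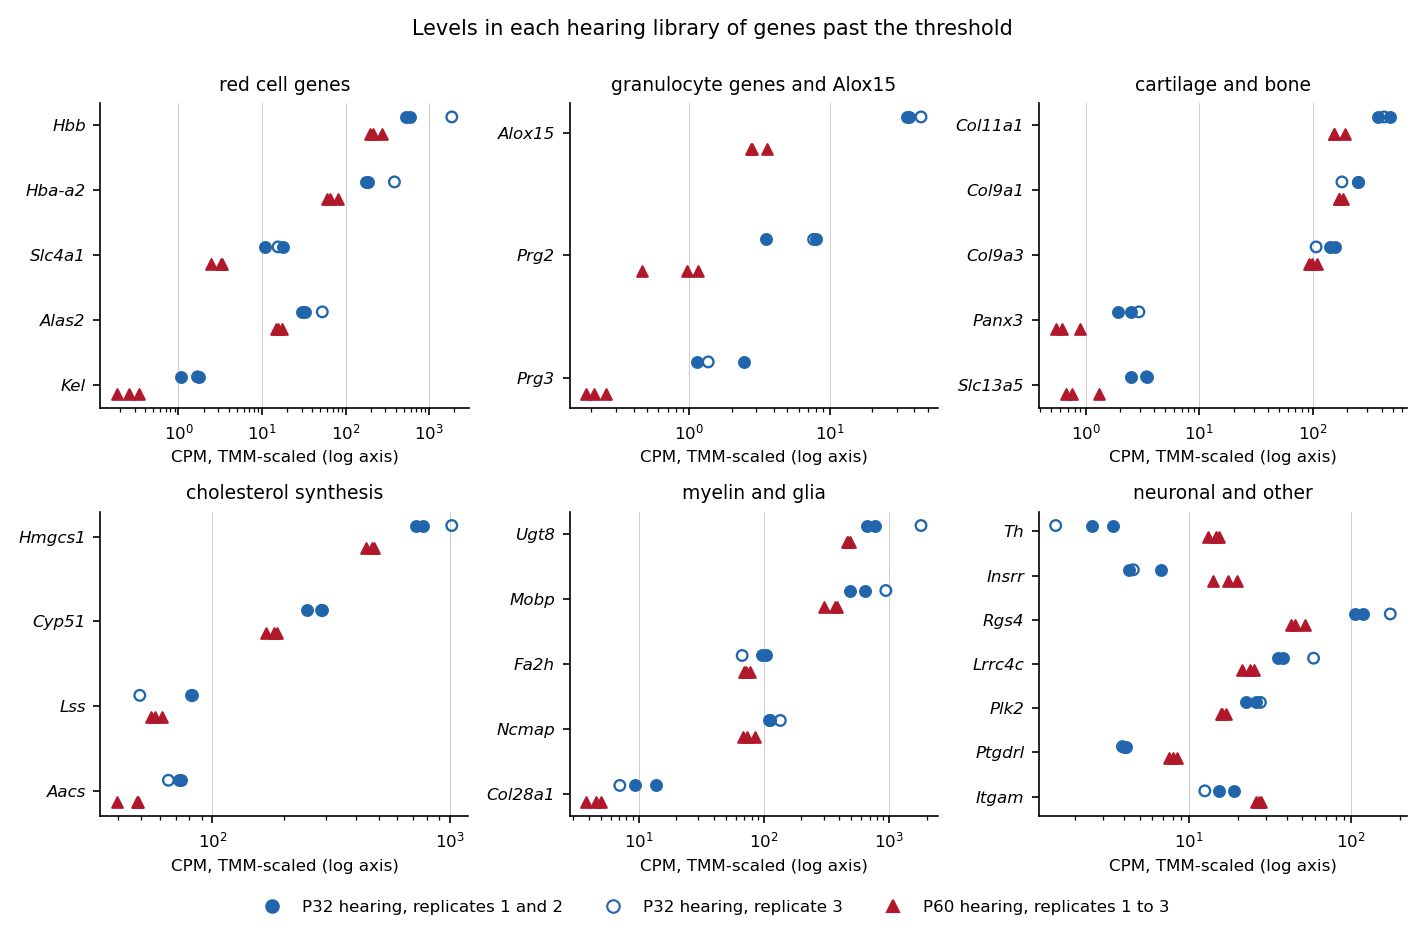
Level of 29 of the 41 genes in each hearing library, in TMM-scaled CPM on log axes, arranged by gene group. Blue circles are P32 libraries (open: replicate 3) and red triangles are P60 libraries; the open circles of Hbb and Ugt8 lie far to the right of the filled ones, while those of Lss, Fa2h, Col9a1 and Col9a3 lie among or below the red triangles.

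**Figure D2:**
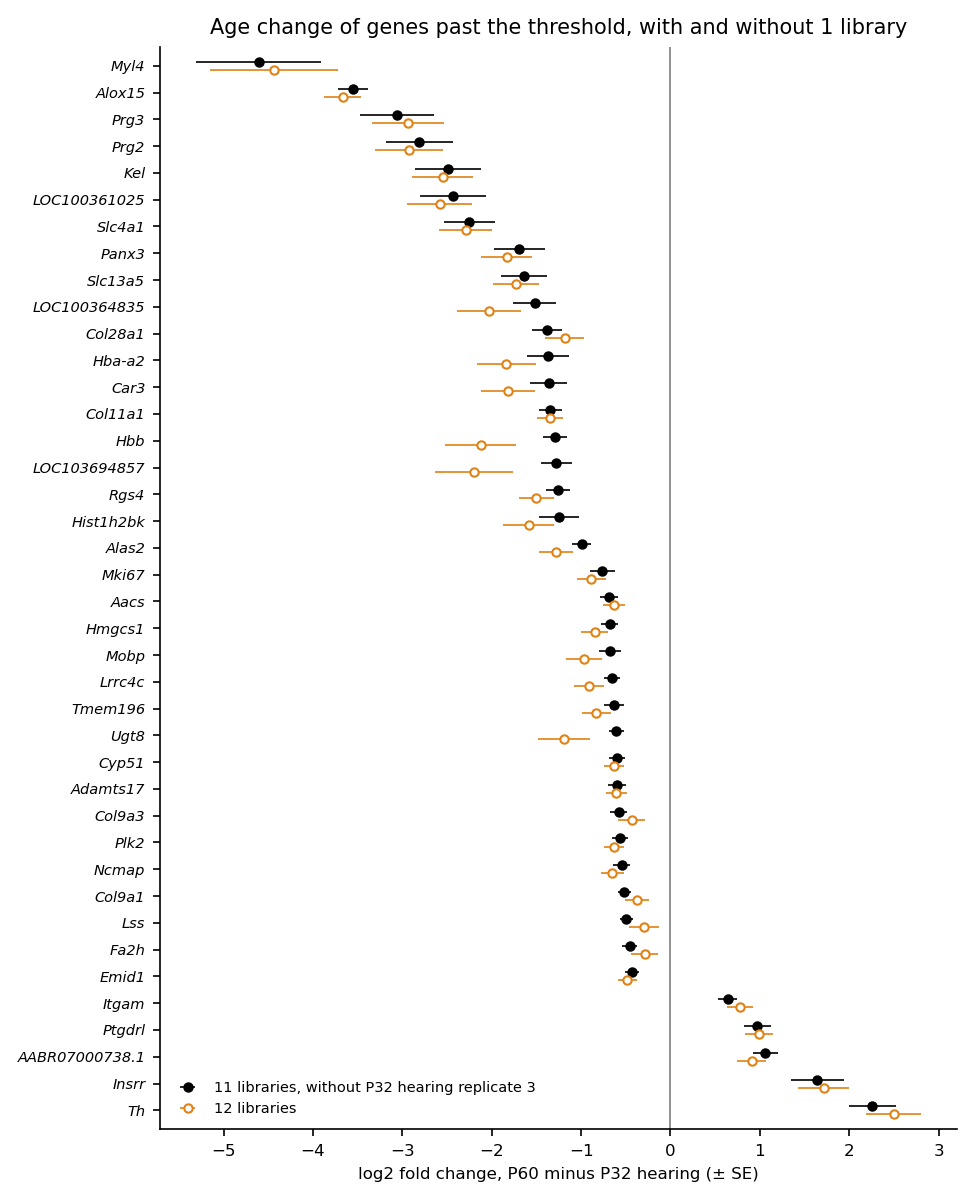
Log2 fold change, P60 minus P32 hearing, with its standard error, for 40 of the 41 genes past the threshold without P32 hearing replicate 3. Filled points are from 11 libraries and open orange points from 12; each of them lies on the same side of 0 in both, and Hbb and Ugt8 show wider errors with 12 libraries.

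Several genes of the red cell lineage fell. Of 22 tested members of an erythroid list, 4 passed the test without replicate 3 and all 4 fell, against a background of 0.199% of all genes lower; with 12 libraries 2 passed, both lower, against 0.0618%. At an unadjusted p under 0.05, 12 members were lower (15 with 12 libraries), and DESeq2 called 7 (10 with 12), all lower. The median of the list was -1.06 without replicate 3 and -1.19 with it, beside 0.00 and -0.03 over all genes. Hbb encodes the beta chain of adult haemoglobin. It measured 535, 583 and 1864 CPM in P32 replicates 1 to 3 and 213, 275 and 195 CPM at P60. Its groups did not overlap, and the P32 library with the 1864 was replicate 3. Without that library Hbb fell 2.45-fold (log2 -1.30 ± 0.14 SE, edgeR adjusted p = 0.00191), while with it the estimate was larger and did not pass (log2 -2.13 ± 0.39, adjusted p = 0.0875). Hba-a2, an alpha chain, lay at 176, 183 and 384 CPM at P32 and at 65.9, 81.2 and 60.5 CPM at P60 (edgeR adjusted p = 0.0367 without replicate 3 and 0.079 with it). Reads of the alpha globin genes can be shared among near-identical copies, so the value of Hba-a2 alone is uncertain.

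The other red cell genes that passed act in membrane transport and haem synthesis. Slc4a1 (band 3), the anion exchanger of the red cell membrane, lay at 10.8, 17.9 and 15.5 CPM at P32 and at 2.48, 3.32 and 3.20 CPM at P60. This was a 4.77-fold fall without replicate 3 (log2 -2.25 ± 0.28, edgeR adjusted p = 0.00668), and it passed with 12 libraries too (log2 -2.29, adjusted p = 0.0163). Alas2, which makes the first intermediate of haem in red cell precursors, fell from 30.4, 32.9 and 52.6 CPM to 14.7, 17.3 and 15.6 CPM. Kel, the Kell blood group protein, is outside the list and fell from 1.06, 1.78 and 1.69 CPM to 0.336, 0.185 and 0.256 CPM. Alas2 and Kel passed with 12 libraries and with 11. Of the list's other members, Hemgn (log2 -1.75, adjusted p = 0.11) and Rhag (log2 -2.32, adjusted p = 0.19) had large estimates that did not pass, and the housekeeping haem enzyme Fech had a log2 fold change of -0.04. The list summed to 2236, 2338 and 5254 CPM at P32 and to 1347 to 1490 CPM at P60. In bulk tissue, fewer cells of a type and less RNA per cell cannot be told apart, and how much blood or marrow each dissection carried was not tested.

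Promoters of 2 globin genes that fell are shown because they carry the binding boxes known for this family. The windows are the 200 bases before the annotated start, from RefSeq on GRCr8. Hbb is at chr1:167663722-167663921 and Hba-a2 at chr10:15829139-15829338, both on the minus strand, written 5′ to 3′ along the gene. Capitals mark CCAAT on either strand (ATTGG on the other) and, in Hbb, the box CCACACCC.
Hbb: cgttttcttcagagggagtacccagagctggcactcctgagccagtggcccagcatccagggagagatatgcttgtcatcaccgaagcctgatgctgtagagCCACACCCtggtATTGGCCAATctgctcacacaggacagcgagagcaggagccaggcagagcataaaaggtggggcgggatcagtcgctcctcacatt
Hba-a2: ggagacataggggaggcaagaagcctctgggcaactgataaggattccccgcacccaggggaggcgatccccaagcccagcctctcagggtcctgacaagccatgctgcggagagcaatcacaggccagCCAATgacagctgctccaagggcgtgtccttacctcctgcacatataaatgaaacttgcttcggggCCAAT
CCAAT on either strand was present in 8077 of 27457 promoter windows of this length (29.4%) and in 12 of the 21 erythroid genes with an entry (57.1%). CCACACCC was present in 659 of 27457 (2.40%), in 2 of the 21, and in 2 of 17 listed cholesterol synthesis genes (11.8%). Alas2, which also fell, had neither box in its window. The 2 CCAAT matches of Hba-a2 began 71 and 5 bases before the annotated start. These are letter matches and not measured binding.

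Alox15, Prg2 and Prg3, genes known from eosinophils, fell. Alox15, a lipoxygenase that oxidises polyunsaturated fatty acids and is made by eosinophils and some macrophages, had the smallest adjusted p of all genes. It stood at 35.6, 36.8 and 44.8 CPM at P32 and at 2.77, 3.60 and 2.77 CPM at P60. The fall was 11.7-fold without replicate 3 (log2 -3.55 ± 0.17, edgeR adjusted p = 6.41e-07) and 12.7-fold with it (adjusted p = 7.18e-06). Prg2, the major basic protein of eosinophil granules, went from 3.51, 8.05 and 7.69 CPM to 0.966, 0.462 and 1.15 CPM. Its relative Prg3 went from 1.13, 2.44 and 1.36 CPM to 0.210, 0.185 and 0.256 CPM. Both passed with 12 and with 11 libraries (adjusted p = 0.00835 for each with 11), and in neither did the ages overlap. These 2 genes were sparse: Prg3 rested on 143 reads at P32 and 17 at P60, and Prg2 on 524 and 65. Epx, the eosinophil peroxidase, had a log2 fold change of -1.56 that did not pass (adjusted p = 0.0535).

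Of 16 tested members of the list of granulocytes and myeloid progenitors, Prg2 alone passed, in both fits, against 0.199% of all genes lower (0.0618% with 12 libraries). At an unadjusted p under 0.05, 10 members were lower and 1 higher (11 and 1 with 12 libraries), and DESeq2 called 4 lower (6 with 12). The list's median was -1.12 with 11 libraries and -1.33 with 12, and 14 of its 16 members lay below 0 in each. Neutrophil genes in it did not pass: S100a8 had a log2 fold change of -1.42 (adjusted p = 0.18), S100a9 of -1.16 (adjusted p = 0.36) and Mpo of -1.76 (adjusted p = 0.16). The list summed to 28.5, 58.1 and 62.0 CPM at P32 and to 18.9 to 24.1 CPM at P60. Of 18 tested genes of B cells and plasma cells none passed edgeR's test or DESeq2 (2 were lower at an unadjusted p under 0.05, median -0.27 with 11 libraries). Among 36 macrophage genes 1 passed, against 0.0277% of all genes higher. It was Itgam, the alpha chain of complement receptor 3, which was higher at P60 (15.4, 19 and 12.6 CPM at P32, 25.9, 27.8 and 27 CPM at P60, edgeR adjusted p = 0.0264 without replicate 3 and 0.0888 with it). Of the macrophage list, 7 genes were higher and 1 lower at an unadjusted p under 0.05 with 11 libraries (5 and 2 with 12). The background was 2.81% of all genes higher with 11 and 2.16% with 12. DESeq2 called 2 higher with 11 libraries and 1 with 12. The macrophage list's median changed sign between the fits, 0.15 with 11 libraries and -0.16 with 12, where 29 and 15 of the 36 lay above 0.

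Some collagens of cartilage fell between the ages. Of 17 tested cartilage genes, 3 passed without replicate 3, all lower, against 0.199% of all genes lower, and 1 with 12 libraries, against 0.0618%. At an unadjusted p under 0.05, 9 were lower (11 with 12 libraries), and DESeq2 called 6 (2 with 12), all lower. Col11a1 encodes a chain of type XI collagen, which sits in the core of cartilage fibrils and is also made by other cochlear tissues. It lay at 477, 370.2 and 422 CPM at P32 and at 154, 192 and 154 CPM at P60, with replicate 3 inside the range of its group. The fall was 2.54-fold in both fits (log2 -1.34 ± 0.13 with 11 libraries, edgeR adjusted p = 0.00134; -1.34 ± 0.15 with 12, adjusted p = 0.00685). Col9a1 and Col9a3, chains of type IX collagen on the surface of the same fibrils, passed without replicate 3 and not with it (adjusted p = 0.448 for each with 12 libraries). Col9a1 measured 248, 247 and 179 CPM at P32 and 167, 168 and 184 CPM at P60, so that replicate 3 lay among the P60 values. Col2a1, the main cartilage collagen, had a log2 fold change of -0.86 that did not pass (adjusted p = 0.16). Acan, the core proteoglycan of cartilage, named after its values were seen, had a log2 fold change of 0.11 ± 0.10 (-0.03 ± 0.14 with 12 libraries) and did not pass; it fell in deafened ganglia, as given with the other differences between the conditions. The list's median was -0.49 with 11 libraries and -0.42 with 12.

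Among bone genes, none of 18 tested list members passed in either fit, though 16 of 18 lay below 0 in each (median -0.53 with 11 libraries and -0.67 with 12, against 0.00 and -0.03 over all genes; 10 had an unadjusted p under 0.05 in the direction of lower levels, and DESeq2 called 4 with 11 and 5 with 12). Smpd3 (log2 -0.92, adjusted p = 0.053), Ibsp, a bone matrix sialoprotein (log2 -0.97, adjusted p = 0.06), and Bglap, osteocalcin (log2 -1.0, adjusted p = 0.13), were nearest by adjusted p. Col1a1, the main collagen of bone, lay at 452, 353 and 531 CPM at P32 and at 145, 264 and 136 CPM at P60 and did not pass (adjusted p = 0.162 with 11 libraries and 0.152 with 12). Bone genes summed to 3613, 3309 and 7305 CPM at P32 and to 2997 to 3180 CPM at P60, and cartilage genes to 1989, 1739 and 2088 CPM at P32 and to 1228 to 1248 CPM at P60. The dissection removed bone, and the part of residual bone and cartilage in these falls was not tested. Panx3, a channel protein of osteoblasts and chondrocytes, and Slc13a5, a citrate transporter, are in neither list and fell 3.23-fold and 3.11-fold without replicate 3 (adjusted p = 0.0304 and 0.0196), and both passed with 12 libraries.

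**Figure D3:**
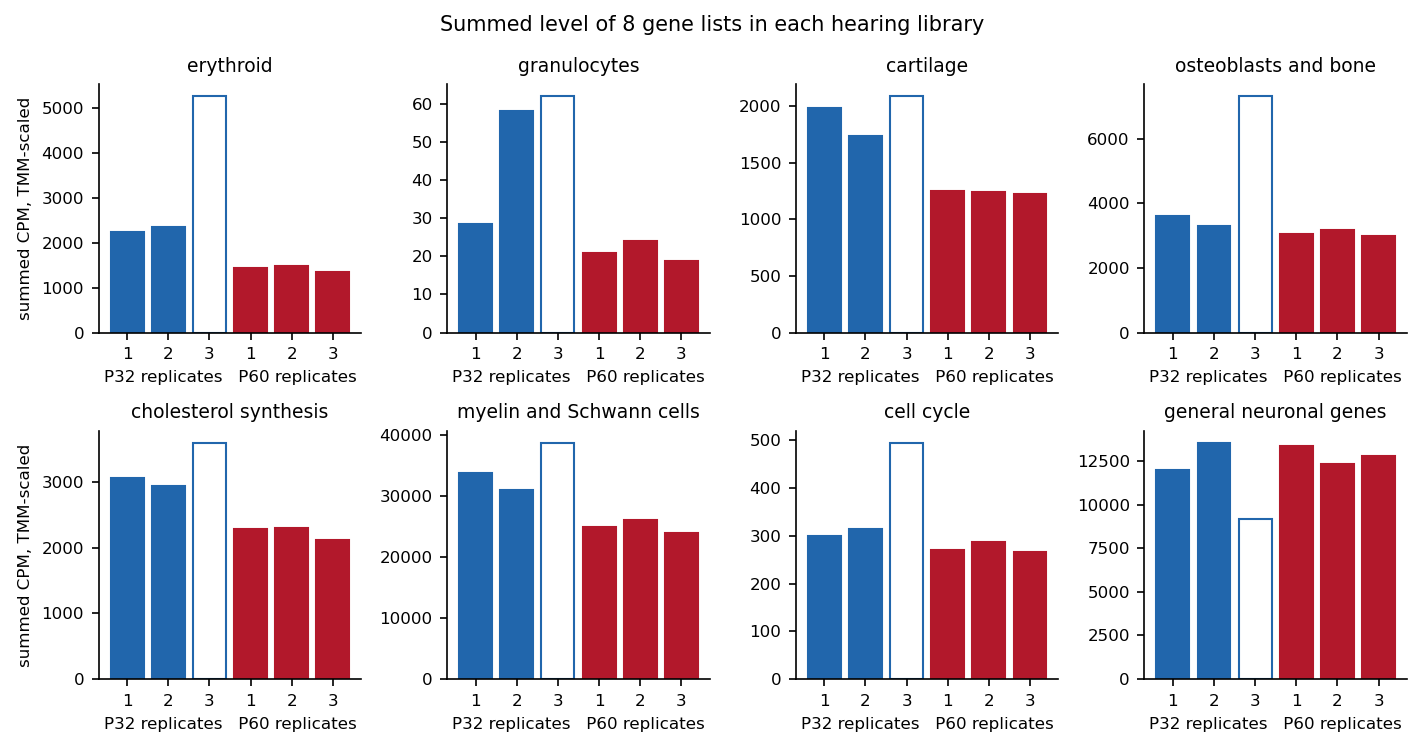
Summed TMM-scaled CPM of the members of 8 gene lists in each hearing library, with bars for P32 replicates 1 to 3 (blue, open for replicate 3) and P60 replicates 1 to 3 (red), axes from 0. The P32 bars of erythroid, cartilage, cholesterol and myelin genes stand above the P60 bars in every library, while the neuronal sum runs from 9154 to 13545 CPM at P32 and from 12303 to 13385 CPM at P60.

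Enzymes of cholesterol synthesis were among the genes that fell. This pathway builds sterols from acetyl-CoA and is active in glia that lay down myelin, since myelin is rich in cholesterol made locally. All 25 listed genes were tested, and without replicate 3 4 passed, all lower, beside 0.199% of all genes; 24 of the 25 lay below 0, 17 had an unadjusted p under 0.05 in that direction, and DESeq2 called 11. With 12 libraries none passed the edgeR test, while 23 of 25 lay below 0, 16 had an unadjusted p under 0.05 and DESeq2 called 5. The median was -0.35 with 11 libraries and -0.33 with 12. Hmgcs1, which condenses acetyl-CoA units at the entry of the pathway, measured 768, 718 and 1016 CPM at P32 and 478, 469 and 442 CPM at P60. Every P32 library was above every P60 library, and the fall was 1.6-fold without replicate 3 (log2 -0.68 ± 0.10, edgeR adjusted p = 0.0138; with it, log2 -0.85 ± 0.15, adjusted p = 0.079).

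Lss, which closes the sterol ring, lay at 81.6, 82 and 49.5 CPM at P32 and at 57.5, 61.6 and 54.9 CPM at P60. Replicates 1 and 2 were above all P60 libraries and replicate 3 was not, and the log2 fold change was -0.49 without replicate 3 (edgeR adjusted p = 0.0162) and -0.29 with it (adjusted p = 0.451). Cyp51, the lanosterol demethylase, did not show this split: its P32 values of 290.5, 251 and 288 CPM all exceeded the 181, 187 and 168 CPM of P60 (log2 -0.60, adjusted p = 0.0138 without replicate 3 and 0.079 with it). Among the members that did not pass, Acat2 (log2 -0.63, adjusted p = 0.072) and Nsdhl (log2 -0.41, adjusted p = 0.072) came nearest. The regulator Srebf2 was the 1 member above 0 (log2 0.08). Aacs, which activates acetoacetate for lipid synthesis and was named after its values were seen, fell 1.61-fold without replicate 3 (adjusted p = 0.0135, and 0.0924 with it).

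The promoters of 2 of these enzymes are shown for the same box as above. The CCAAT box is bound by NF-Y, which acts beside the sterol-sensing factors in this pathway. Hmgcs1 is at chr2:53382104-53382303 on the plus strand and Lss at chr20:12118231-12118430 on the minus strand (RefSeq, GRCr8, 200 bases before the annotated start, 5′ to 3′ along the gene). Capitals mark CCAAT read on the opposite strand, ATTGG.
Hmgcs1: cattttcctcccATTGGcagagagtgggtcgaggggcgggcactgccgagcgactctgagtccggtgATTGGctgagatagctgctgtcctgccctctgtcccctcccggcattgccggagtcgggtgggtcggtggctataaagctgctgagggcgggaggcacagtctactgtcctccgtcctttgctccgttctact
Lss: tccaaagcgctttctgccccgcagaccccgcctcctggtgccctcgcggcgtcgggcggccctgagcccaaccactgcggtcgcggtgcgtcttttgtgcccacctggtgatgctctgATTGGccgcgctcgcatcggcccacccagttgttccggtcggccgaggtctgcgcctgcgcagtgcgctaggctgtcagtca
CCAAT on either strand was in 14 of the 17 cholesterol genes with an entry (82.4%), against 29.4% of all windows. Cyp51, which also fell, had no CCAAT in its window. The sterol regulatory element, searched by its usual consensus on both strands, was in 48 of 27457 windows (0.175%) and in 0 of these 17, which says only that these letters were not in the windows.

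Some myelin lipid enzymes and myelin proteins fell as well. Of 29 myelin and Schwann cell genes, 4 passed without replicate 3, all lower, against 0.199% of all genes lower; 13 were lower and 1 higher at an unadjusted p under 0.05, and DESeq2 called 7. With 12 libraries none passed (15 lower at an unadjusted p under 0.05, and 4 called by DESeq2). The medians were -0.19 and -0.29, and 23 of 29 lay below 0 with 11 libraries. Ugt8 makes galactosylceramide, the main glycolipid of myelin. It stood at 775, 674 and 1802 CPM at P32 and at 472, 491 and 461 CPM at P60, with all P32 libraries above all P60 libraries and replicate 3 far above its group. It fell 1.52-fold without replicate 3 (log2 -0.61 ± 0.09, edgeR adjusted p = 0.0113), and with it the estimate was -1.19 ± 0.29 and did not pass (adjusted p = 0.217). Fa2h, which adds the hydroxyl group to the fatty acids of these lipids, fell 1.37-fold without replicate 3 (adjusted p = 0.0485, and 0.448 with it). Ncmap, a protein of noncompact Schwann cell myelin, fell from 112 and 110.2 CPM in P32 replicates 1 and 2 to 68.5, 85.1 and 74.1 CPM (adjusted p = 0.0406 without replicate 3), with 136 CPM in replicate 3 (adjusted p = 0.106 with it). Mobp, a myelin-associated basic protein of oligodendrocytes that is distinct from Mbp, fell 1.6-fold without replicate 3 (adjusted p = 0.0485, and 0.141 with it). It was the 1 of 20 genes of central glia to pass, against 0.199% of all genes lower. That list summed to 4979, 4330 and 6186 CPM at P32 and to 4078 to 4572 CPM at P60. How much of the central part of the nerve each dissection held was not tested.

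Mbp, an abundant structural protein of myelin, did not pass in either fit. It measured 7860, 6522 and 6343 CPM at P32 and 5710, 5795 and 4692 CPM at P60 (log2 -0.41 ± 0.11, adjusted p = 0.191), with no overlap of the groups. The transcription factors Sox10 and Egr2 had log2 fold changes of -0.08 and 0.15. Col28a1, a collagen of peripheral nerve made around nodes of Ranvier, is in no list. It fell 2.60-fold, from 9.44, 13.7 and 7.09 CPM to 4.54, 4.98 and 3.84 CPM (log2 -1.38 ± 0.17, adjusted p = 0.00464 without replicate 3 and 0.0795 with it). Myelin genes summed to 33792, 31015 and 38799 CPM at P32 and to 23992 to 26204 CPM at P60.

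Of the 5 genes that rose, Th changed the most. Th encodes tyrosine hydroxylase, the rate-limiting enzyme of dopamine and noradrenaline synthesis, which in the adult mouse cochlea marks type II neurons. It lay at 2.57, 3.42 and 1.53 CPM at P32 and at 14.7, 13.3 and 15.4 CPM at P60, with a wide gap between the ages. The rise was 4.78-fold without replicate 3 (log2 2.26 ± 0.26, edgeR adjusted p = 0.00361) and 5.64-fold with it (adjusted p = 0.0163), from 219 reads at P32 and 1143 at P60. Other genes of the catecholamine pathway, looked up after Th was seen, did not pass: Ddc, the next enzyme, had a log2 fold change of 0.10, Gch1, which makes the cofactor of Th, of -0.45 (adjusted p = 0.627), and the vesicular monoamine transporter Slc18a2 of -0.09. The noradrenaline transporter Slc6a2 had 23 reads at each age. Th was the 1 member of 28 tested genes of type I and type II neurons that passed, against 0.0277% of all genes higher (0.0112% with 12 libraries). The list's median was 0.02 with 11 libraries and 0.11 with 12. Prph, peripherin, another type II marker, lay at 27.0, 74.4 and 18.6 CPM at P32 and at 18.3, 23.9 and 15.4 CPM at P60, with overlapping groups (log2 -1.40, adjusted p = 0.18).

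Insrr, a receptor tyrosine kinase related to the insulin receptor and activated by alkaline conditions, rose from 6.76, 4.33 and 4.58 CPM to 19.7, 17.6 and 14.1 CPM. The rise was 3.13-fold without replicate 3 (log2 1.64 ± 0.29, edgeR adjusted p = 0.0465), and it did not pass with 12 libraries (3.28-fold, adjusted p = 0.0638). Insr and Igf1r, its relatives, looked up afterwards, had log2 fold changes of 0.08 and 0.07. Ptgdrl, a gene resembling the prostaglandin D2 receptor, rose from 4.04, 4.14 and 3.92 CPM to 8.44, 8.03 and 7.63 CPM and passed in both fits (adjusted p = 0.0399 with 12 libraries and 0.0182 with 11).

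None of 26 general neuronal genes, 34 potassium, HCN and leak channel genes, 29 sodium and calcium channel genes, 36 genes of synaptic vesicles and release or 25 genes of nodes of Ranvier passed edgeR's test without replicate 3, and none passed with 12 libraries. With 11 libraries 4, 8, 6, 5 and 2 of them were lower at an unadjusted p under 0.05, where 5.01% of all genes were, and 1 synaptic gene was higher. DESeq2 called 1, a sodium or calcium channel gene, and with 12 libraries it called 2, all of them lower. Their medians with 11 libraries were -0.14, -0.11, -0.01, 0.00 and -0.05. With 12 libraries the medians of the potassium channel list (0.04), the node list (0.20) and the synaptic list (0.17) lay above 0. Nefh, the heavy neurofilament, measured 2247, 2727 and 1074 CPM at P32 and 2914, 2616 and 2817 CPM at P60 (log2 0.16 ± 0.11 without replicate 3, adjusted p = 0.865). Slc17a7, the vesicular glutamate transporter of type I neurons, measured 574, 611 and 498 CPM at P32 and 742, 610.1 and 666 CPM at P60 (log2 0.18 ± 0.12, adjusted p = 0.828). Kcna1, a potassium channel that limits repetitive firing, had a log2 fold change of -0.05 ± 0.13, and Scn8a, the sodium channel of nodes, of 0.10 ± 0.13. In replicate 3 these 2 genes were far below their group, at 71.9 CPM against 218 and 234 CPM for Kcna1 and at 76.5 CPM against 250.4 and 308 CPM for Scn8a. Gap43, a growth cone protein of immature neurons, had a log2 fold change of -0.10 ± 0.14.

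**Figure D4:**
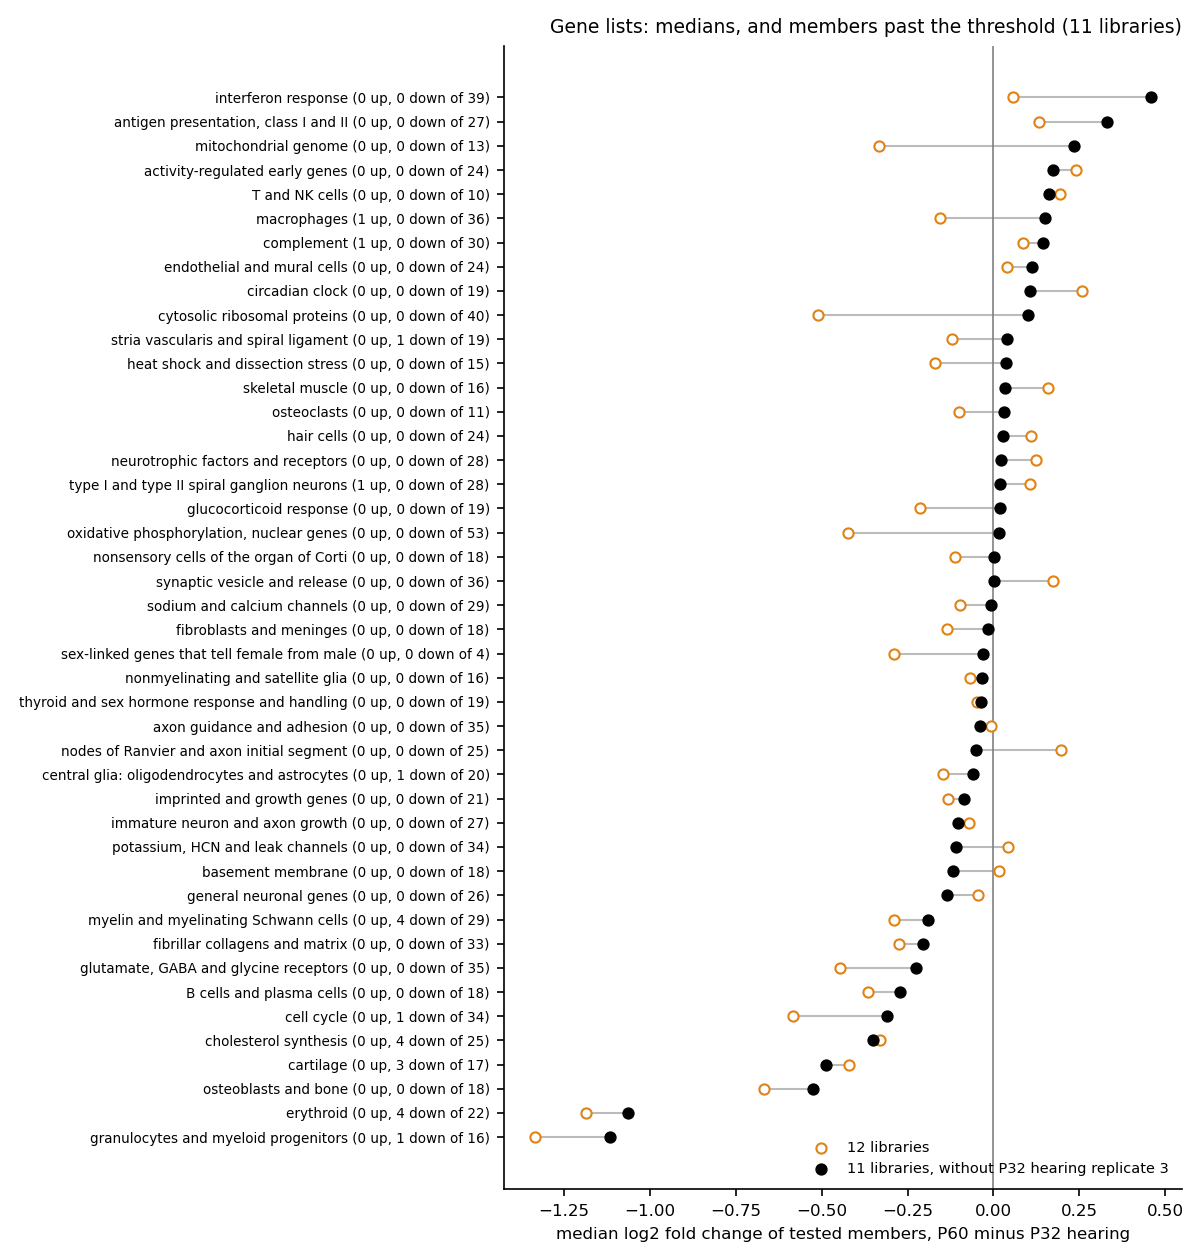
Median log2 fold change, P60 minus P32 hearing, over the tested members of each gene list, from 11 libraries (filled) and 12 libraries (open), joined by a grey line. Erythroid and granulocyte genes have the lowest medians in both fits, and ribosomal protein, oxidative phosphorylation and mitochondrial genome genes change sign between the fits.

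Rgs4 and Lrrc4c, outside these lists and named after their values were seen, fell. Rgs4, which shortens signalling by G protein-coupled receptors, lay at 106, 117 and 174 CPM at P32 and at 42.7, 45.3 and 52 CPM at P60, a 2.39-fold fall without replicate 3 (log2 -1.26 ± 0.13, edgeR adjusted p = 0.00191) that passed with 12 libraries too (adjusted p = 0.0163). Lrrc4c, an adhesion protein of synapses, fell 1.57-fold without replicate 3 (adjusted p = 0.0104, and 0.0906 with it), from 35.6, 38.3 and 58.7 CPM to 23.7, 25.1 and 21.4 CPM. None of 35 receptor genes for glutamate, GABA and glycine passed edgeR's test (6 lower and 1 higher at an unadjusted p under 0.05 with 11 libraries, DESeq2 1 with 11 and 2 with 12; median -0.23 with 11 libraries and -0.45 with 12).

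A single cell cycle gene passed. Of 34 tested, it was Mki67, a nuclear protein of dividing cells, without replicate 3, against 0.199% of all genes lower. At an unadjusted p under 0.05, 14 were lower, against 5.01% of all genes, and DESeq2 called 4 lower, against 0.74%. None passed with 12 libraries, where 17 were lower at an unadjusted p under 0.05 (8.04% of all genes) and DESeq2 called 6 (0.759%). With 11 libraries 29 of the 34 lay below 0 (median -0.31, and -0.58 with 12). Mki67 measured 17.4, 23.4 and 26 CPM at P32 and 10.2, 12.9 and 13 CPM at P60 (log2 -0.76 ± 0.14, edgeR adjusted p = 0.0485 without replicate 3 and 0.079 with it). Top2a (log2 -0.99, adjusted p = 0.084) and Prc1 (log2 -0.93, adjusted p = 0.053) did not pass. Hist1h2bk, a core histone gene with near-identical copies, fell 2.38-fold without replicate 3 (adjusted p = 0.0485, and 0.079 with it). The muscle-type light chain Myl4 had the largest fitted fall (log2 -4.61 ± 0.70, adjusted p = 0.0162 without replicate 3 and 0.0543 with it), from 1.93, 2.53 and 1.42 CPM to 0.0840, 0.123 and 0.0426 CPM, which was 168 reads at P32 and 7 at P60. No member of the 16 tested skeletal muscle genes passed edgeR's test or DESeq2 (1 was higher at an unadjusted p under 0.05, median 0.04). Car3, a carbonic anhydrase in the list of the stria vascularis and spiral ligament, fell from 54.8, 41 and 100.2 CPM to 15.1, 25.2 and 15 CPM (adjusted p = 0.0162 without replicate 3 and 0.0713 with it). It was the 1 gene of 19 in that list to pass, against 0.199% of all genes lower.

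Whether these changes differed in deafened rats was asked with the difference between the age change in hearing and in deafened ganglia. The age change of 40 of the 41 genes had the same sign in deafened ganglia, but the share of all genes with the same sign was not counted. Of the 41, 30 also passed there without replicate 3 (14 with 12 libraries), where 3.08% of all genes passed, 1.83% higher and 1.26% lower (0.275% with 12). Alox15 had a log2 fold change of -3.20 ± 0.16 in deafened ganglia (difference -0.35 ± 0.24, edgeR adjusted p = 0.897), Slc4a1 one of -2.07 ± 0.27 (difference -0.18 ± 0.40, adjusted p = 0.962) and Col11a1 one of -1.39 ± 0.12 (difference 0.05 ± 0.18, adjusted p = 0.978). Hmgcs1 fell in deafened ganglia by 1.04 ± 0.09 on the log2 scale (difference 0.35 ± 0.13, adjusted p = 0.669) and Cyp51 by 0.85 ± 0.08 (difference 0.26 ± 0.12, adjusted p = 0.814). Other genes that fell had smaller estimates in deafened ganglia, where they did not pass. Col28a1 had a log2 fold change of -0.39 ± 0.15 there (difference -0.99 ± 0.23, edgeR adjusted p = 0.246). Prg2 had one of -1.10 ± 0.35 (difference -1.71 ± 0.53, edgeR adjusted p = 0.502). None of these differences passed, which does not show that the changes were equal.

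Th was the gene with the widest gap between the conditions among those that rose, but the gap did not pass. Its deafened libraries lay at 3.44, 1.81 and 3.79 CPM at P32 and at 3.95, 5.32 and 5.83 CPM at P60, all below the hearing P60 values. The log2 fold change there was 0.79 ± 0.25 (adjusted p = 0.122), and the difference from hearing was 1.47 ± 0.36 (edgeR adjusted p = 0.301). Over all genes the difference passed for 0 of 17789 genes with 12 libraries (805 had an unadjusted p under 0.05, and DESeq2 called 27) and for 14 of 18057 without replicate 3 (0.0775%), 1 higher (0.00554%) and 13 lower (0.072%) in hearing. Plk2 was the 1 gene of the 41 among these 14. Plk2, a kinase induced by neuronal activity and stress, measured 22.5, 25.8 and 27.6 CPM at P32 and 16, 17 and 15.8 CPM at P60 in hearing ganglia, and 34.3, 33.7 and 33.7 CPM at P32 and 38.5, 42.1 and 44.1 CPM at P60 in deafened ones. Its log2 fold change was -0.57 ± 0.09 in hearing (adjusted p = 0.0185) and 0.29 ± 0.08 in deafened ganglia (adjusted p = 0.0723), a difference of -0.86 ± 0.12 (adjusted p = 0.0223; 0.212 with 12 libraries). Gfap, the glial filament protein, did not pass in hearing (log2 0.01 ± 0.11), with 1476, 1307 and 1516 CPM at P32 and 1486, 1470.02 and 1237 CPM at P60, while it rose in deafened ganglia (log2 0.92 ± 0.10), a difference of -0.91 ± 0.15 (adjusted p = 0.0475; 0.389 with 12 libraries).

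Acan was the 1 of the 14 whose difference was higher in hearing. It measured 139, 130.3 and 177 CPM at P32 and 142, 139 and 155 CPM at P60 in hearing ganglia, with overlapping ages. In deafened ganglia it measured 155, 172 and 184 CPM at P32 and 98.2, 90.1 and 81 CPM at P60, with every P60 library below every P32 library. It fell there by 0.93 ± 0.09 on the log2 scale (edgeR adjusted p = 0.000174), a difference of 1.04 ± 0.13 (adjusted p = 0.0223; 0.594 with 12 libraries).

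**Figure D5:**
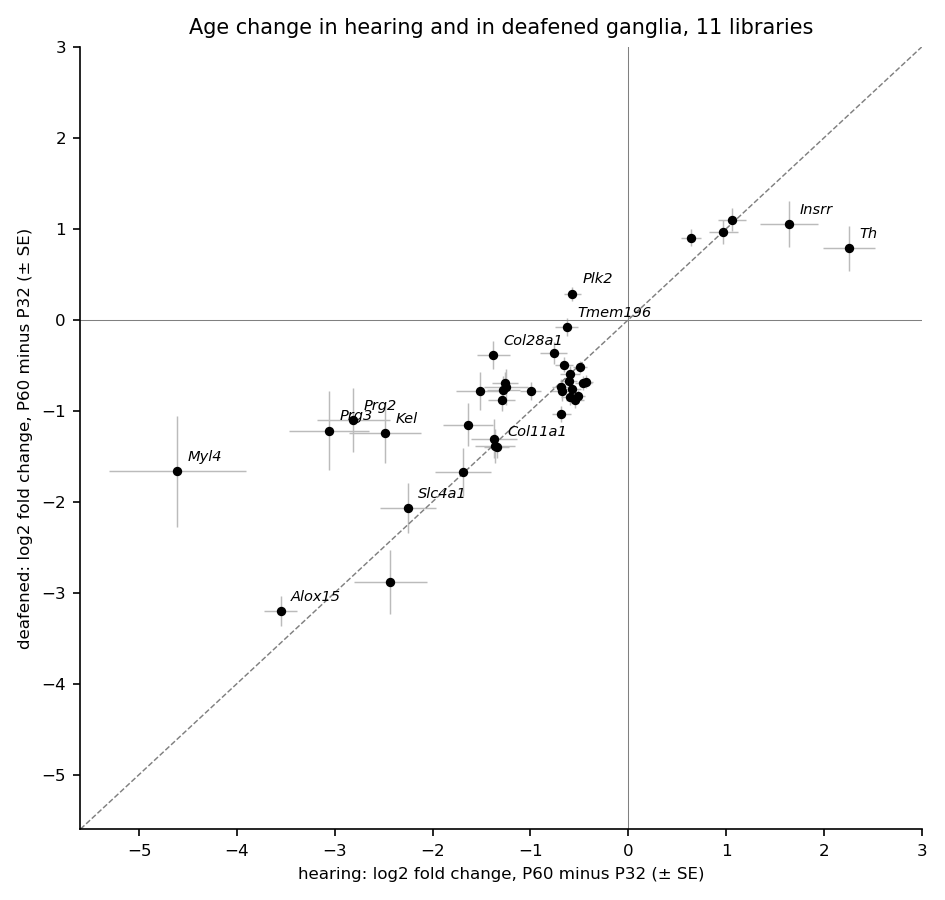
Log2 fold change from P32 to P60, with standard errors, in hearing ganglia (horizontal axis) against deafened ganglia (vertical axis) for 40 of the 41 genes past the threshold without P32 hearing replicate 3. The points of Alox15, Slc4a1 and Col11a1 lie low on both axes, and Plk2 is the 1 gene whose sign differs.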

How the data were processed

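Reads per gene were counted by the authors, who deposited raw counts for 32883 genes in 12 libraries, each already 1 column although every library was sequenced on 3 lanes. Tools in the submitters' processing notes were STAR 2.7.0b, Subread 1.6.3 with featureCounts, DESeq2 1.32.0, bcl2fastq 2.20, SAMtools and Trimmomatic, with no roles given. No source used here gives genome build, annotation or strandedness, so a gene and its antisense partner may share reads. The other deposited table is a normalized signal, the authors' counts divided by a size factor per library, for 21829 symbols in 11 libraries. Multiplying it back gave whole reads within 0.1 for 100% of values (largest deviation 0.0835), and each symbol matched exactly 1 gene, which paired symbols with gene IDs. The 11054 genes without a symbol held 0.00632% of reads.

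Tests used the raw counts. With edgeR 4.0.16 (R 4.3.3), filterByExpr kept genes, TMM scaled libraries, and a group-means quasi-likelihood model was fitted to every library, with and without P32 hearing replicate 3. Tests were two-sided, and the threshold was a Benjamini-Hochberg adjusted p under 0.05 over all genes tested. Levels are TMM-scaled CPM with the 12-library scaling, so that a ratio of means can differ from a fitted fold change. The SE is the log2 fold change divided by the square root of F. Age changes of hearing and deafened ganglia were compared by the interaction term. Replicates of 1 group differed by more than sampling noise, so none was counted as a duplicate. Alternatives were DESeq2 1.42.0 (its size factors or its test), limma 3.58.1, other filters, a replicate block, hearing libraries alone, a minimum fold of 1.5, limma on log2 of the normalized values plus a pseudocount of 1 or 5, and leaving out each library in turn. The scripts were tested on simulated data. Figures used matplotlib 3.10.9, numpy 2.4.6 and pandas 2.3.3 under Python 3.11.15.

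The 44 gene lists (1203 entries, some genes in several) and the comparisons were chosen with earlier results of these data known, so they are descriptive: a list is given by its counts and median. Named genes were the 10 largest rises and falls without replicate 3 and the 5 largest each way with 12 libraries, among genes that passed with no overlap of the ages, at least 1 CPM and a regular symbol, then up to 4 passing members per list and a fixed set of genes. Other genes, among them list members that did not pass, were named after their values were seen. Motifs were counted in RefSeq promoter windows (GRCr8), which were matched by symbol. Some genes that this rule names are not reported here.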

Additional observations from a re-analysis of the deposited data

Results flagged for a closer look

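Among the genes of the report, 3 changed differently with age in hearing and in deafened ganglia by the test of the difference itself, without P32 hearing replicate 3. For Gfap the age change in hearing minus that in deafened ganglia was -0.911 on the log2 scale (edgeR adjusted p = 0.0475), and for Plk2 it was -0.858 (adjusted p = 0.0223). For Acan it was 1.04 (adjusted p = 0.0223), from a fall in deafened ganglia. With 12 libraries none of the 3 differences passed (Gfap -0.96, adjusted p = 0.389; Plk2 -0.93, adjusted p = 0.212; Acan 0.89, adjusted p = 0.594).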

How the results depend on the processing

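Over the named genes, 1471 values were recomputed under other settings. Of these, 1268 kept their side of the threshold, 90 lost the threshold, 113 gained it, and none that passed in either fit changed direction. Genes that passed in neither could change sign: Kcna1 had a log2 fold change of 0.32 with 12 libraries and -0.05 with 11. Of the 41 genes, Alox15 and Col11a1 passed in 22 of 22 settings and Hbb, Rgs4 and Th in 21, while Mki67 and Mobp passed in 7. With 12 libraries (13 genes in the report) DESeq2 called 160, no filter on low counts 21, hearing libraries alone 1, a minimum fold of 1.5 1, and limma voom with sample weights 356. Leaving out 1 library gave 1 to 41: 1 without P60 hearing replicate 1 or 3, 3 without P60 hearing replicate 2, 27 and 28 without P32 hearing replicates 1 and 2, and 41 without replicate 3. Without P32 hearing replicate 3 (41 genes) DESeq2 called 173, no filter 134, hearing libraries alone 170 and a minimum fold of 1.5 8. Leaving out 1 more library gave 3 to 240: 3 without P32 hearing replicate 2, 8 and 10 without P60 hearing replicates 1 and 3, and 240 without P60 deafened replicate 3, which enters through the shared estimate of the spread. With P32 hearing replicate 1 left out as well, 47 passed, of which 18 were among the 41; there and without replicate 2 a single P32 hearing library is assumed to vary like the other groups. For the difference between hearing and deafened age changes (0 genes with 12 libraries), DESeq2 called 27 and leaving out 1 library gave 0 to 14, with 2 without P60 deafened replicate 1. Without P32 hearing replicate 3 (14 genes) DESeq2 called 70, and leaving out 1 more gave 0 to 47: 0 without any P32 deafened library, either remaining P32 hearing library or P60 hearing replicate 1 or 3, 3 without P60 hearing replicate 2, and 29 and 47 without P60 deafened replicates 1 and 3. The causes were not tested.

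For replicate numbers, deviations of same-numbered P32 and P60 hearing libraries from their group means correlated at 0.0576, -0.0348 and 0.0292 over 17789 genes. Between different numbers the correlations ran from -0.0772 to 0.0760. The P32 means included replicate 3, which was unlike the others, so these correlations cannot decide whether the samples were paired. Whether same-numbered samples shared a litter or a batch was not tested. With the number as a replicate block, 11 genes passed with 12 libraries (9 of the 13) and 29 without replicate 3 (28 of the 41), and the difference passed for 1 and for 14 genes. Genes under about 1 CPM, such as Myl4, Prg3 and Kel, rested on few reads at P60 (7, 17 and 20), which limits their fold changes.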

Other observations

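Genes of the interferon response differed widely between libraries of the same age. Of 39 tested, none passed edgeR's test or DESeq2 in either fit. With 11 libraries 9 had an unadjusted p under 0.05, all higher, against 2.81% of all genes higher. Above 0 lay 37 without P32 hearing replicate 3 (median 0.46), against 50.7% of all genes. With it 24 did (median 0.06), against 46.6%. The list summed to 748, 594 and 1168 CPM in P32 replicates 1 to 3 and to 798, 1146 and 611 CPM in P60 replicates 1 to 3. Irf7, a factor that amplifies this response, lay at 13.9, 9.94 and 25.1 CPM at P32 and at 17.1, 41 and 9.25 CPM at P60, and Mx2, an antiviral protein, at 46.7, 20.0 and 86.9 CPM and at 66.6, 113 and 25.6 CPM. P60 replicates 2 and 3 were the highest and the lowest of the P60 libraries for both genes. Aurkb, a mitotic kinase, was the member of the cell cycle list with the largest fold change above 0 (log2 2.42, adjusted p = 0.61), and it lay at 1.3, 1.58 and 0.872 CPM at P32 and at 16.3, 6.89 and 0.426 CPM at P60.

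Of 27 tested genes of antigen presentation, none passed edgeR's test in either fit. Without replicate 3 an unadjusted p under 0.05 was seen for 10, all higher, against 2.81% of all genes. DESeq2 called 3 there, against 0.237% of all genes higher, and 0 with 12 libraries. The list's median was 0.33 without replicate 3 and 0.13 with it. Cd74, the chaperone of class II molecules, lay at 30.9, 32.7 and 37.6 CPM at P32 and at 42.5, 59.6 and 46.5 CPM at P60, with no overlap (log2 0.64, adjusted p = 0.184 without replicate 3).

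Genes of energy and protein production changed sign with P32 hearing replicate 3. Cytosolic ribosomal protein genes summed to 7411 and 7311 CPM in P32 replicates 1 and 2, to 18217 CPM in replicate 3 and to 7667 to 7945 CPM at P60. Their median log2 fold change was 0.10 without replicate 3, where 38 of 40 lay above 0 (50.7% of all genes). It was -0.51 with replicate 3, where 0 did (46.6% of all genes). The 13 transcripts of the mitochondrial genome all lay above 0 without replicate 3 (median 0.23) and all below 0 with it (median -0.33). No member of either list passed edgeR's test or DESeq2 in either fit; with 11 libraries 4 mitochondrial and 0 ribosomal genes had an unadjusted p under 0.05.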
